A study of Mus musculus with 6 samples.

Results

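The control library of an RNA interference series in E14 cells, a mouse embryonic stem (ES) cell line, gives the methylation level of single cytosines in cells that carried a control short hairpin RNA (shRNA). The cells received shRNA control and no shRNA against an enzyme of the methylation cycle, and the labels give no time, clone or hairpin sequence. All autosomal cytosines with a level in this library were taken, which are 574461 of the 733073 autosomal cytosines with a level in any of the 6 libraries of the series, or 78.4%. Every library was made by reduced representation bisulfite sequencing, in which MspI cuts DNA at CCGG so that sequence rich in CpG is enriched, and bisulfite then deaminates unmethylated cytosine. Both 5-methylcytosine and 5-hydroxymethylcytosine resist bisulfite, so a level is the share of reads in which either was present. There was 1 control library, and its levels came as fractions without read counts, which leaves the depth unknown, so no test or counting interval is given. Spread is the standard deviation (SD) over the 19 autosomes or over the cytosines of a named region, and neither repeats the culture.

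In mammals, CpG methylation is set by DNMT3A and DNMT3B, copied to the new strand after replication by DNMT1, and removed by way of oxidation by TET enzymes. Most CpGs of the genome are methylated, while CpG islands, the dense CpG stretches at many gene starts, are usually free of methylation. Germline genes are a known exception, because many of their CpG-rich promoters are methylated in cells of the embryo and soma. At imprinted loci the alleles of the mother and the father differ in methylation.

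The promoters that carry the main contrasts below are shown first. Each line holds the 250 bases before a RefSeq transcription start, 5′ to 3′ on the gene's strand, from RefSeq sequences of GRCm38.p6. Capitals mark CpGs with at least 1 strand listed in the control library. The positions are those of the library, on mm9: Tex101 at chr7:25457070-25457319 (minus strand), Asz1 at chr6:18059062-18059311 (minus strand), Mael at chr1:168168876-168169125 (minus strand), Commd1 at chr11:22872867-22873116 (minus strand, the start numbered 2 of this gene in the RefSeq table), Mcts2 at chr2:152512634-152512883 (plus strand) and Sox2 at chr3:34548667-34548916 (plus strand). Tex101, Asz1 and Mael are germline genes whose promoters averaged 85.8%, 68.3% and 41.4%, Commd1 overlaps the longest run of intermediate levels, Mcts2 is an imprinted gene, and Sox2, a core pluripotency factor, is the unmethylated case.
Tex101: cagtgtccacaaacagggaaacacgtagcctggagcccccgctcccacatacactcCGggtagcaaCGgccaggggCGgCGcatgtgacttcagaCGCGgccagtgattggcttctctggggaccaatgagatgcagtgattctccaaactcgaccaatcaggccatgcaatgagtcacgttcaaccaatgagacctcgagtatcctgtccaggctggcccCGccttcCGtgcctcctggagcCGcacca
Asz1: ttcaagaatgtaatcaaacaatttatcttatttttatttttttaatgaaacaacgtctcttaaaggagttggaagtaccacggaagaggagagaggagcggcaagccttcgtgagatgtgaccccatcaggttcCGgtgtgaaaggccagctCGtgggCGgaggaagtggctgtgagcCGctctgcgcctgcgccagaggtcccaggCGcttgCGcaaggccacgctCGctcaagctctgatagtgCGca
Mael: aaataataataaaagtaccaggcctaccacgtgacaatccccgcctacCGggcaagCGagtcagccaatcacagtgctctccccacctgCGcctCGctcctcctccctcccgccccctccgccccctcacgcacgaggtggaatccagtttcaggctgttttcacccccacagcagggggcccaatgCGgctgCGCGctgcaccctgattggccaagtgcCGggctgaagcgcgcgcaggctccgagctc
Commd1: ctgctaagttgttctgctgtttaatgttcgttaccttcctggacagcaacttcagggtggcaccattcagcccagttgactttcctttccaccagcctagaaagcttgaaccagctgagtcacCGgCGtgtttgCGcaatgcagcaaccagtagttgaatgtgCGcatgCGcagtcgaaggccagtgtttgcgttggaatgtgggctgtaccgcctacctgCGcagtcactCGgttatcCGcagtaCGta
Mcts2: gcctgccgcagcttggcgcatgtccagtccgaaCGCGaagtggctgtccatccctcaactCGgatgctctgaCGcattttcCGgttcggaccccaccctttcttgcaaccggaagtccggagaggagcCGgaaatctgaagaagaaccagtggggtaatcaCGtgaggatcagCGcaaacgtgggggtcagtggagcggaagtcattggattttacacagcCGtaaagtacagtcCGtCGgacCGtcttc
Sox2: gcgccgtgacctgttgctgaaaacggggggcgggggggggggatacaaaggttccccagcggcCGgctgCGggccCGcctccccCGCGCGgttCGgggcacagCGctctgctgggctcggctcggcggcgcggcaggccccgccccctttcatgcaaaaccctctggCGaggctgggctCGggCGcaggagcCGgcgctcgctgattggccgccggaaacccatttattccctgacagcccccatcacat

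The levels were split between an unmethylated and a methylated state. Of the autosomal cytosines, 59.1% ± 1.9 (SD, n = 19 autosomes) had a level below 20%, 24.2% ± 2.0 had one above 80%, and 16.7% ± 1.4 lay between 20% and 80%. These 3 classes are called unmethylated, methylated and intermediate here and held 339286, 139111 and 96064 cytosines. The unmethylated state was near its limit: 253308 cytosines were at exactly 0, which is 74.7% of the unmethylated class and 44.1% ± 1.5 of all cytosines. The methylated state was not, since only 16576 cytosines were at exactly 100%, or 11.9% of the methylated class. The mean within the methylated class was 90.6% ± 5.5 (SD over cytosines), the mean within the intermediate class 57.1% ± 18.5, and the mean within the unmethylated class 1.35% ± 3.49. In bins of 5 points the lower mode, 0% to 5%, held 53.1% of cytosines. The upper mode lay at 90% to 95% with 8.05%, and the least filled bin was 45% to 50% with 0.786%. The mean level was 32.3% ± 1.7 (SD, n = 19 autosomes), the median 2.2% and the upper quartile 79.5%. The mean of a distribution with these separate modes falls where few cytosines lie. The plus strand averaged 32.2% and the minus strand 32.4%.

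**Figure D1:**
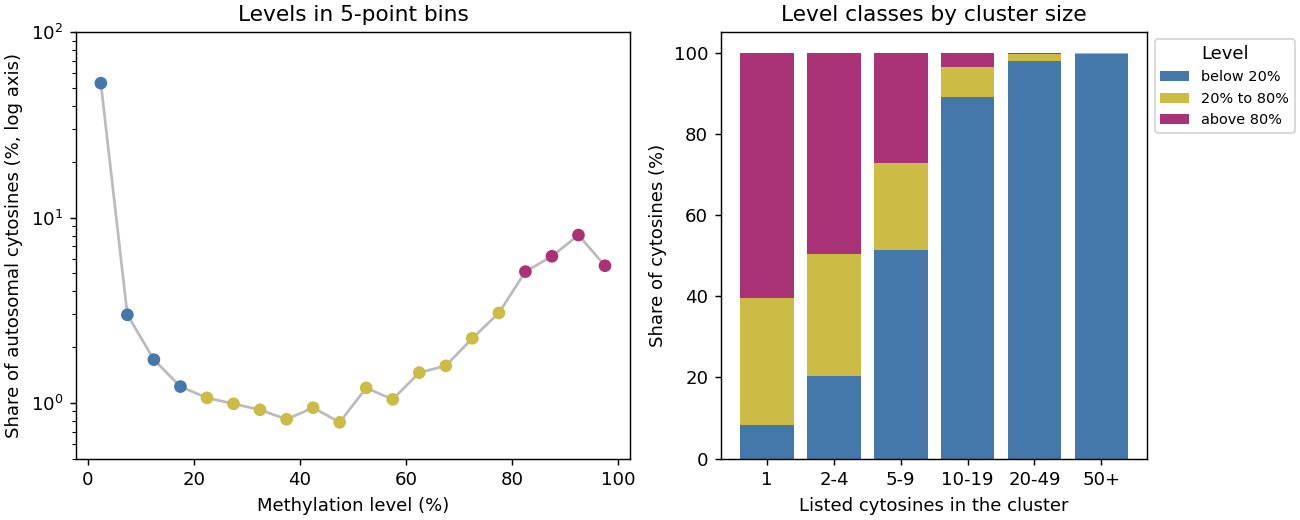
Left, the share of autosomal cytosines of the control library in each 5-point bin of methylation level, as points on a log axis, coloured by class; right, the share of cytosines in each level class by the number of listed cytosines in their cluster (neighbours at most 100 bp apart). The bin from 0% to 5% holds 53.1% of cytosines and the bin from 45% to 50% holds 0.786%, and clusters of 50 or more cytosines are 99.6% unmethylated while isolated cytosines are 60.5% methylated.

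The state of a cytosine followed the density of listed cytosines around it. Cytosines were joined into clusters wherever neighbours lay at most 100 bp apart. Isolated cytosines, 8.49% of all, averaged 74.6% ± 1.7 (SD, n = 19 autosomes). Clusters of 2 to 4 averaged 63.6% ± 2.0 and clusters of 5 to 9 averaged 37.7% ± 2.4. Above that size the level was low, with 7.59% ± 1.61 in clusters of 10 to 19, 1.55% ± 0.44 in clusters of 20 to 49 and 0.619% ± 0.566 in clusters of 50 or more. The difference between each size and the next was larger than either SD over autosomes. Since a cytosine is listed only where it was sequenced, cluster size reflects coverage and CpG density together.

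Clusters of at least 5 cytosines numbered 32724 and held 66.3% of cytosines (medians 8 cytosines and 132 bp). By their mean level, 21632 (66.1%) were unmethylated, 5107 (15.6%) intermediate and 5985 (18.3%) methylated. Unmethylated clusters were denser, at a median of 8.89 listed cytosines per 100 bp, against 5.08 in intermediate and 4.72 in methylated clusters. Of the variance of levels, 96.3% lay between clusters. Cytosines of 1 class only were held by 24116 clusters (73.7%). These were 19847 of the 21632 unmethylated clusters, but 1457 of the 5107 intermediate and 2812 of the 5985 methylated ones. In 7279 clusters every listed cytosine was at exactly 0. An unmethylated and a methylated cytosine occurred together in 288 clusters, 0.880% of them. The median SD inside a cluster was 0.348 points in unmethylated, 13.3 points in intermediate and 6.10 points in methylated clusters. Among intermediate clusters the mean lay above 60% in 2380, between 40% and 60% in 1331 and below 40% in 1396.

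Runs of consecutive cytosines of 1 class, again with gaps of at most 100 bp, showed how far a state extended. There were 21060 unmethylated runs of at least 5 cytosines, which took in 87.6% of all unmethylated cytosines, against 2464 intermediate and 3639 methylated runs of that size. Unmethylated runs reached 173 cytosines and methylated runs 30. The unmethylated maximum was 330 with gaps of up to 300 bp and 287 with classes set at 30% and 70%, and the methylated one was 16 with classes at 10% and 90%. Between the 438903 pairs of neighbours at most 100 bp apart, 90.8% had the same class. A direct step between unmethylated and methylated occurred in 574 pairs (0.131%), while 27894 steps (6.36%) joined intermediate and methylated cytosines and 11887 (2.71%) joined unmethylated and intermediate ones. From an unmethylated run of at least 5, the nearest methylated cytosine lay a median of 11862.5 bp away, and in 2.04% of runs it lay within 1000 bp. Few borders between the states were therefore listed.

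The 3 longest unmethylated runs each held a gene start. The longest lay at chr15:85565446-85566602 (mm9), spanned 1157 bp, averaged 0.36% ± 1.24 (SD over 75 cytosines, highest 8.7%) and contained a promoter of Ppara, a nuclear receptor of fatty acid metabolism. The next, chr8:113782317-113783453, spanned 1137 bp at 0.144% ± 0.682 (63 cytosines) and contained that of Glg1, a Golgi glycoprotein. The third, chr5:148536696-148537807, spanned 1112 bp at 0.267% ± 0.660 (48 cytosines) and overlapped that of Flt1, a receptor for vascular endothelial growth factor. None of the 3 longest methylated runs overlapped a placed promoter (promoters were placed by sequence, as described below). They lay at chr13:45663328-45663831 (504 bp, 91.2% ± 4.7 over 30 cytosines), chr1:194329155-194329640 (486 bp, 89.3% ± 4.6 over 20) and chr8:78427769-78428182 (414 bp, 92.2% ± 5.0 over 11). The nearest placed promoters were those of Gmpr at 60466 bp, Sertad4 at 352257 bp and Rasd2 at 689877 bp. Only 19.8% of promoter entries, mostly CpG-rich ones, were placed, so starts not placed can lie nearer. The lengths depend on the gap allowed. The longest unmethylated run spanned 765 bp with gaps of up to 50 bp and 2712 bp with gaps of up to 300 bp. The longest methylated run spanned 288 bp and 977 bp at those gaps.

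The longest intermediate run, chr11:22872484-22872993, spanned 510 bp and held 24 cytosines with levels of 20% to 52.6% and a median of 48.7%. It overlapped the promoter of the second RefSeq start of Commd1, a gene with roles in copper handling, and held that start. In the mouse, an intron of Commd1 holds the imprinted gene Zrsr1. The promoter's 12 listed cytosines ranged from 46.3% to 52.6% and averaged 49.9% ± 1.9 (SD over cytosines), on both strands and at positions -127 to 21 relative to the start. At the first RefSeq start of Commd1, all 5 listed cytosines were at 0. Of the 21 placed promoters with means of 40% to 60%, this was the only one with an SD below 5 points, and the median SD was 15.9. The other long intermediate runs, chr5:148082796-148083278 (483 bp, 50.7% ± 15.1 over 14 cytosines) and chr5:122319170-122319609 (440 bp, 46.0% ± 13.7 over 28), overlapped no placed promoter and were less even, with cytosines from 27% to 79.3%. With gaps of up to 300 bp the longest intermediate run spanned 1427 bp.

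Neighbouring cytosines had similar levels at short distances. Pairs 2 to 10 bp apart had a Pearson r of 0.974 over 331440 pairs, pairs 26 to 50 bp apart one of 0.963, and pairs over 100 and up to 200 bp apart one of 0.951. Each further step is named by its upper bound: the correlation was 0.855 up to 500 bp, 0.684 up to 1000 bp, 0.492 up to 2000 bp, 0.245 up to 5000 bp, and 0.026 from 100000 to 1000000 bp. These values are descriptions, because pairs share cytosines, the library and often the same reads. On the same strand nearby cytosines can lie on 1 read, while opposite strands are read from different molecules. At 26 to 50 bp the same strand gave 0.966 and opposite strands 0.947, and in the step up to 200 bp opposite strands gave 0.958 and the same strand 0.935. The part of shared reads in the agreement was not tested.

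**Figure D2:**
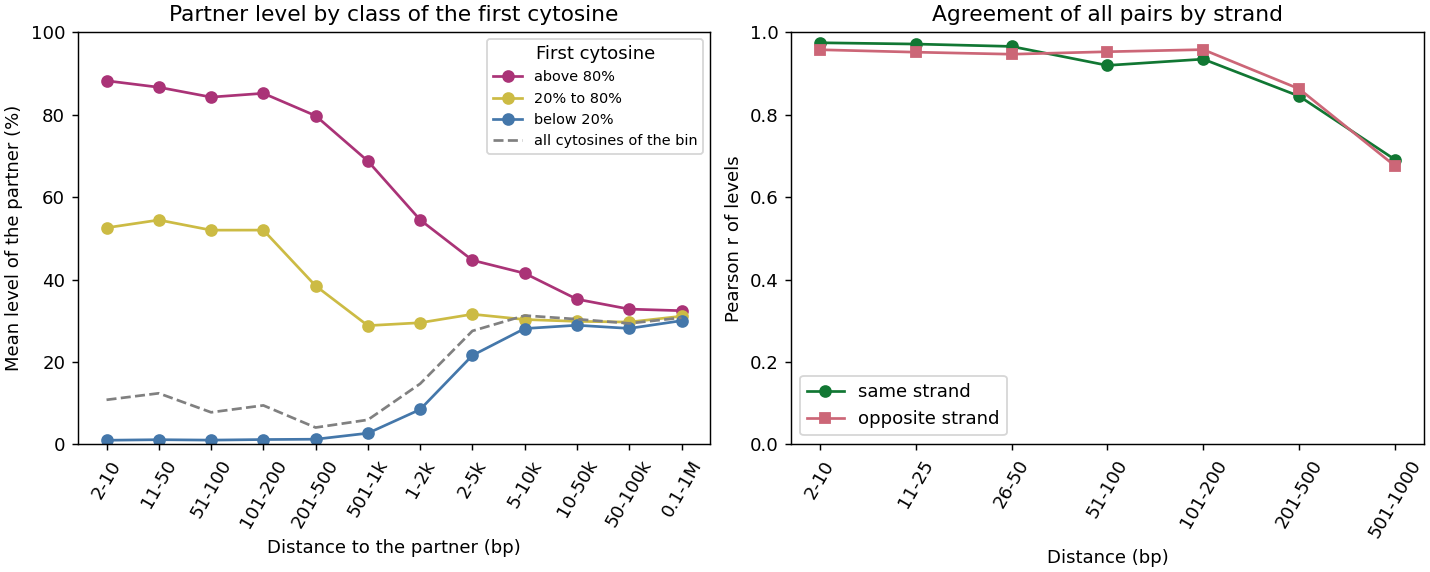
Left, mean methylation level of the partner cytosine by distance in bp, for first cytosines that were methylated (above 80%), intermediate or unmethylated (below 20%), with the mean of all cytosines of each distance bin as a dashed line; right, Pearson r of levels for pairs on the same and on opposite strands. Partners of methylated cytosines average 88.2% at 2 to 10 bp and 32.4% at the greatest distance, where the 3 classes lie within 2 points of the dashed line.

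The level of the partner depended on the class of the first cytosine and on distance. Partners of a methylated cytosine averaged 88.2% at 2 to 10 bp, 68.7% in the step up to 1000 bp, 44.7% in the step up to 5000 bp and 32.4% from 100000 to 1000000 bp. Partners of an unmethylated cytosine averaged 1.001%, 2.71%, 21.6% and 30.01% at the same distances. Partners of an intermediate cytosine averaged 52.6% at 2 to 10 bp, 38.5% in the step up to 500 bp, 28.8% in the step up to 1000 bp and 31.1% for the most distant pairs. The mean of all cytosines that had a partner also varied, with 5.96% in the step up to 1000 bp and 30.7% for the most distant pairs. In the step up to 1000 bp the partners of intermediate cytosines were thus still above that mean, and 28.7% of them were intermediate, against 19.05% of partners of intermediate cytosines in the most distant pairs.

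The strands of 1 CpG were both listed for 13488 of 560973 CpGs (2.40%), and 84.0% of these lay in CCGG. Their levels had an r of 0.972, and plus minus minus averaged -0.0093 points with an SD of 9.07. The SD of the difference was 3.73 points over 8208 unmethylated, 17.7 points over 2353 intermediate and 9.37 points over 2927 methylated CpGs. Only 19 CpGs (0.141%) were below 20% on one strand and above 80% on the other. Methylation of CpG is copied between strands, and these differences contain the error of single levels as well.

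The enzyme set which cytosines were seen. The first CpG cytosine at a cut, the one within CCGG, made up 192584 of the listed cytosines (33.5%), and 98.5% of all cytosines lay within 49 bases 3′ of a listed CCGG cytosine on the same strand. At 49 bases 8057 cytosines were listed and at 50 bases 36. A plus-strand CCGG cytosine and the minus-strand one that follows it lay a median of 135 bp apart, with 5% to 95% between 99 and 207 bp. CCGG cytosines averaged 50.3%, against 23.2% for all others. The difference went with position: 24.6% of CCGG cytosines were isolated, against 0.365% of the others. Within clusters of at least 5 the means were 23.2% for CCGG and 12.7% for the others. Set against the other cytosines of the same intermediate cluster, CCGG cytosines deviated by -0.829 ± 0.521 points (SD, n = 19 autosomes).

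**Figure D3:**
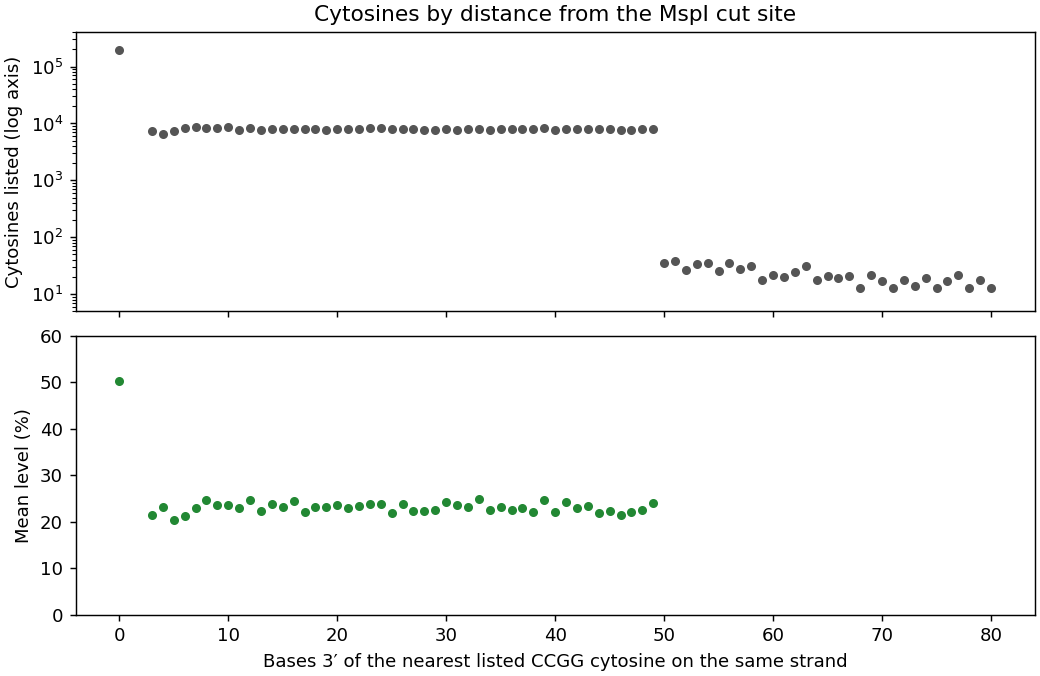
Top, the number of listed autosomal cytosines (log axis) by distance in bases 3′ of the nearest listed CCGG cytosine on the same strand; bottom, their mean methylation level. The count drops from 8057 at 49 bases to 36 at 50, and the mean is 50.3% at the CCGG cytosine itself and near 23% over the rest of the window.

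The base after a CpG went with its level in opposite ways across the genome and within a locus. Over all listed cytosines, a CpG followed by C averaged 17.2% ± 1.2 (SD, n = 19 autosomes), by A 29.5% ± 1.9, by T 34.1% ± 2.2 and by G 39.9% ± 2.0. Without CCGG the value for G was 21.2% ± 1.5. Of cytosines followed by C, 85.3% were in clusters of at least 5, and of those followed by T, 68.4%. The part of this in the averages was not tested. Each cytosine was also set against the mean of the other cytosines of its own cluster. In intermediate clusters a CpG followed by C was then 5.40 ± 0.68 points above its neighbours, above them on 19 of 19 autosomes. One followed by T was lower than its neighbours, at -2.62 ± 1.33 points, as was one followed by A at -1.86 ± 1.23, while one followed by G was at -0.16 ± 0.53. Strands were also compared within single intermediate CpGs with both strands listed and C next to 1 strand only. The strand with C minus the other averaged -1.67 points with an SD of 30.5 over 66 CpGs. On the other strand of such a CpG, the base just before the CpG is always G. In intermediate clusters that base also went with levels above the neighbours, at 4.67 ± 0.77 points. The strand comparison therefore sets one raised context against another and cannot show the difference between C and other bases. Its SD is also large over so few CpGs.

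Bases before the CpG showed differences of like size within intermediate clusters. With G just before the CpG the deviation was 4.67 ± 0.77 points, again above 0 on 19 of 19 autosomes, against -0.18 ± 0.48 for C, -1.84 ± 0.93 for A and -2.12 ± 1.27 for T. The base just before a CpG pairs with the base just after it on the other strand. G before is therefore C after, read from the opposite strand, and these values are not a feature separate from those above. With T at the second base before the CpG the deviation was 4.92 ± 0.84 points, and with C there -1.98 ± 0.52. The 5-base contexts spanned a range of more than 20 points: TACGC was 13.9 ± 5.1 points above its cluster, TGCGC 12.6 ± 3.1, TCCGC 11.7 ± 2.9 and TTCGC 11.5 ± 4.4, while AACGA was at -8.94 ± 6.33, GTCGT at -8.93 ± 5.38 and AACGT at -8.87 ± 6.30. The 4 highest contexts share T in the first place and C in the last. Palindromes present the same bases to both strands. GCGC was at 7.36 ± 1.58 points, CCGG at -0.83 ± 0.52, ACGT at -4.50 ± 3.38 and TCGA at -5.17 ± 2.32.

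The deviation for C was smaller where the level was near a limit. C after the CpG was 1.23 ± 0.46 points above its neighbours in methylated clusters and 0.12 ± 0.03 points in unmethylated ones. T after it was at -2.49 ± 0.39 points in methylated clusters, close to its value in intermediate ones. The difference between C and T after the CpG did not rest on one stretch of the read: it was 5.55 points at 3 to 9 bases from the CCGG cytosine, 7.69 at 10 to 19, 8.85 at 20 to 29, 8.67 at 30 to 39 and 9.28 at 40 to 49. Coverage per context is unknown, and whether contexts differ in read number was not tested.

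Autosomes differed in mean level and in their mixture of states. The mean level was lowest on chromosome 19 with 28.0%, followed by chromosome 11 with 29.7% and chromosome 2 with 29.7%, and highest on chromosome 18 with 34.0%. The mean within the methylated class spanned 90.1% to 91.1%, but the limits of that class, 80% and 100%, hold its mean in a narrow range. Across the 19 autosomes the mean level had an r of -0.957 with the unmethylated share, from which it is in part made, and one of -0.86 with the share of cytosines in clusters of at least 5 (64.0% to 69.6%), given as descriptions. The mean level also had an r of 0.808 with the mean outside such clusters (62.1% to 68.6%) and of 0.62 with the mean inside them (12.5% to 17.1%). Among 1526 windows of 1 Mb with at least 100 cytosines the mean ranged from 5.61% in the window that starts at 36 Mb of chromosome 10 to 88.8% in the one that starts at 108 Mb of chromosome 12, with a median of 30.6%. The mean within the methylated class had an SD of 1.11 points over these windows. Outside the autosomes, chromosome X averaged 37.3% (12099 cytosines) and chromosome Y 80.5% (99 cytosines). The 142 mitochondrial cytosines averaged 0.0585% with a highest value of 8.3%.

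Promoters were placed by matching the spacing, strand and 5-base contexts of listed cytosines to the RefSeq promoter sequences, 250 bases before to 50 after each start. At least 5 matched cytosines in a unique place were required. This placed 6210 of 31396 autosomal entries (19.8%), for 5630 genes. Placed promoters had a median of 28 CpGs, against 7 in the whole table, so the set stands for CpG-rich promoters. Of the 5630, 5495 (97.6%) had a mean level below 20%, and in 47.7% every listed cytosine was at exactly 0. Means of at least 20% were found in 135 promoters, 2.40% of those placed, and means above 80% in 36, or 0.639%. These shares depend on the matching minimum, with 6.30% and 2.51% at 3 or more matched cytosines and 0.594% and 0.0313% at 10 or more. Of 1503 entries placed on 3 or 4 cytosines, 175 were out of the RefSeq gene order, and such entries were not left out. The shares at 3 or more can therefore include wrong places.

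Promoter level followed CpG number. Placed promoters with at most 10 CpGs averaged 33.1% and 44.1% of these 102 had at least 20%. The RefSeq table holds 16604 autosomal entries with 1 to 10 CpGs, so the 102 are a small part, selected by having enough listed cytosines. Those with 11 to 15 CpGs averaged 9.69%, those with 16 to 20 averaged 2.41%, and those with 21 to 30 averaged 0.693%. None of the 768 promoters with more than 40 CpGs reached 20%, and the highest among them had 4.65%.

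**Figure D4:**
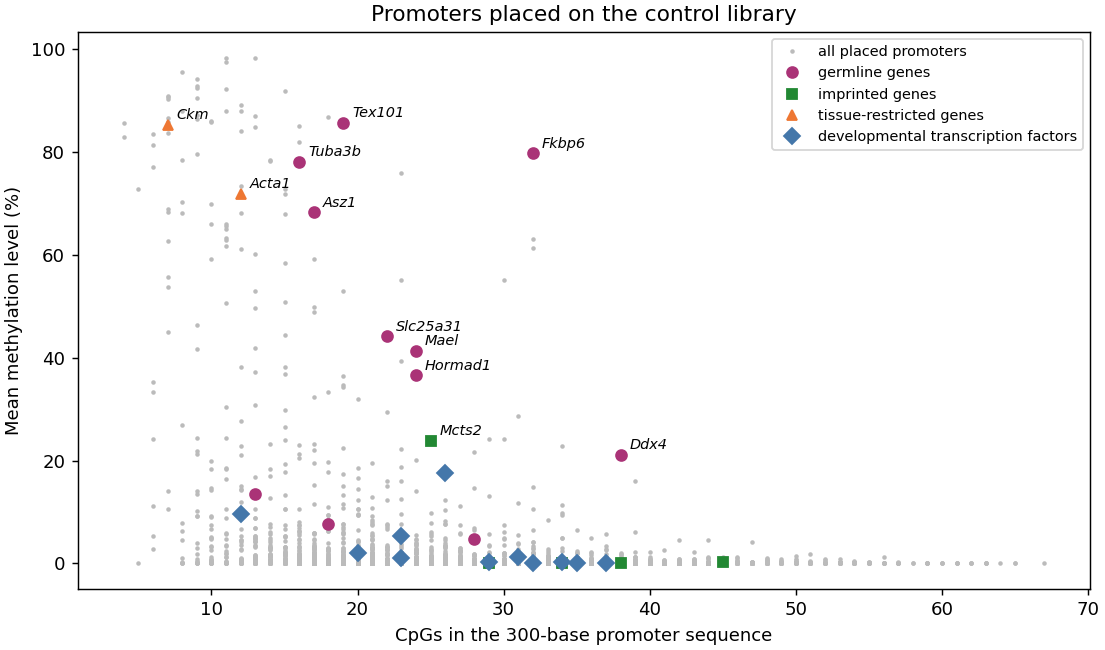
Mean methylation level of each placed promoter of the control library against the number of CpGs in its 300-base sequence, with 4 gene lists marked. Grey points above 20% lie mostly at few CpGs, while 8 of the 11 germline promoters lie above 20% at 16 to 38 CpGs.

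The placed genes of the germline list departed from this pattern. The gene lists were chosen with earlier results of these data known, so the contrast below is a description and not independent support. Of 40 listed genes 11 had a placed promoter, and 8 of the 11 (72.7%) had a mean of at least 20%, against 2.40% of all placed promoters. Their median was 41.4%, against 0.019% over all 5630, with a median of 22 CpGs. The highest were Tex101, which encodes a germ cell surface protein, with 85.8% ± 7.0 (SD over 11 cytosines), and Fkbp6, a chaperone of male meiosis and of piRNA production, with 79.8% ± 4.9 (7 cytosines). The lowest were Meioc, needed to sustain meiotic prophase, with 4.84% ± 3.75 (8 cytosines), and Dmc1, the meiotic recombinase, with 7.70% ± 10.9 (5 cytosines). The other 7 promoters had means of 13.5% to 78.1%.

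The germline promoters also differed in how even they were. The following genes were chosen after their values were seen. The Tex101 cytosines marked above ranged from 73.3% to 96.7%, high over the whole promoter. Asz1, of the piRNA pathway, averaged 68.3% ± 11.6, with 11 cytosines from 50.6% to 82.8%. Mael, also of the piRNA pathway, was graded: 72.7%, 90.9%, 63.6% and 45.5% at positions -202, -194, -161 and -156 relative to the start, and 8.0% to 34.5% in the 6 cytosines at positions -62 to 45. Ddx4, a germ cell RNA helicase, had 4.5% to 33.3% in 9 cytosines.

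**Figure D5:**
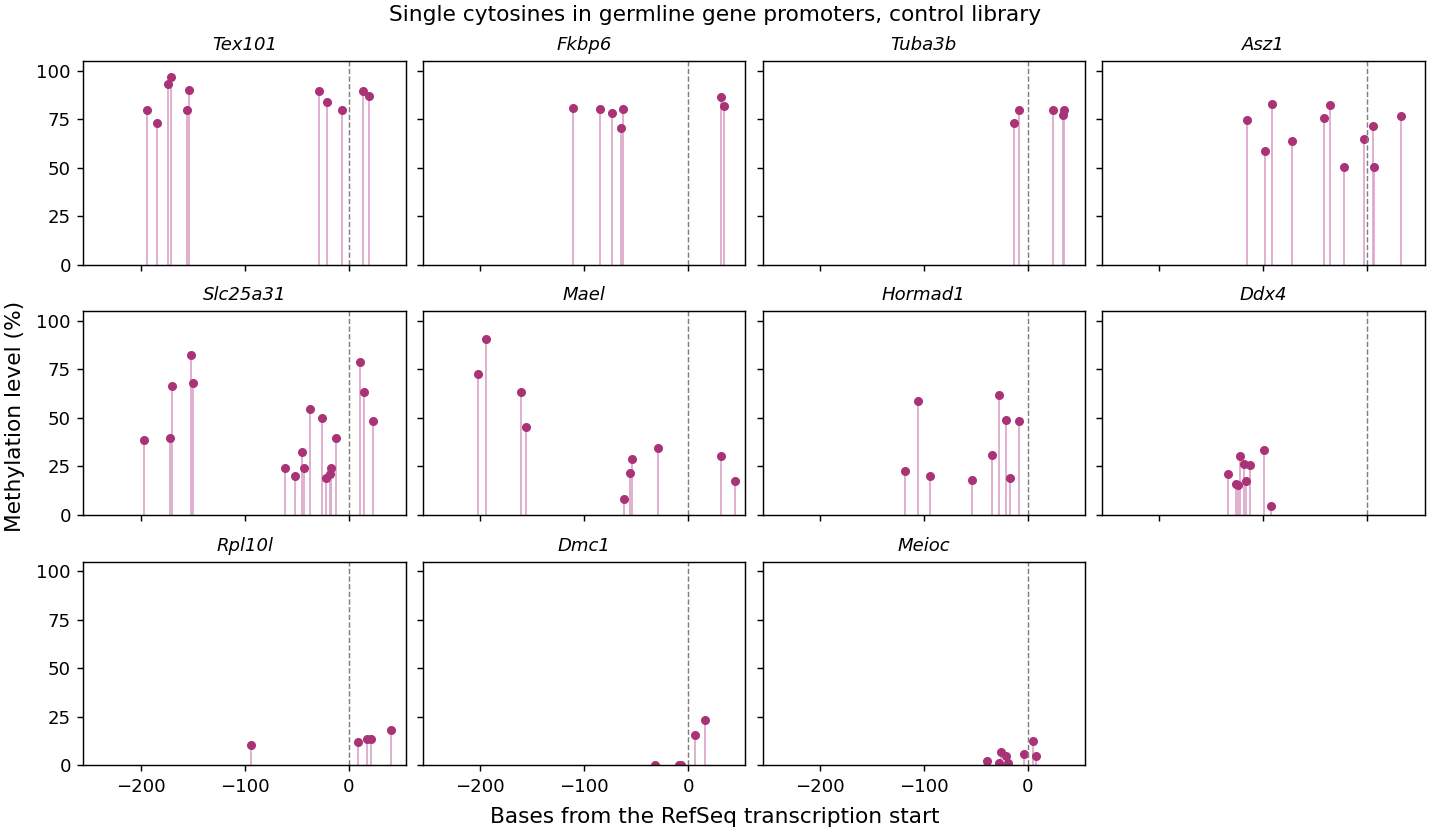
Methylation level of each listed cytosine in the 11 placed germline promoters of the control library, by distance in bases from the RefSeq transcription start (dashed line). Tex101 and Fkbp6 are high throughout, Mael is high only in its distal cytosines, and Dmc1 and Meioc are below 24% at every cytosine.

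Motifs in the 300-base sequences were counted on both strands. The E-box CACGTG was in 5 of the 11 germline promoters (45.5%: Ddx4, Fkbp6, Hormad1, Mael and Slc25a31), against 11.7% of all placed promoters and 7.14% of all promoters in the table. The letters GCGGGAA, like those of an E2F site, were in 6 of the 11 (54.5%), against 11.01% of placed promoters and 4.63% of all. These 6 were Ddx4, Hormad1, Meioc, Rpl10l, Slc25a31 and Tuba3b, of which Meioc and Rpl10l had means below 20%. Among the 135 placed promoters with means of at least 20%, the E-box was in 14.1% and GCGGGAA in 6.67%. The motifs can share at most 1 base of a sequence and were found together in Ddx4, Hormad1 and Slc25a31. A match is a description of these letters only.

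Imprinted genes were mostly unmethylated at the promoters that could be placed. Of 33 listed genes 5 were placed, and 1 had a mean of at least 20%, against 2.40% of all placed promoters. This was Mcts2, a retrogene, with 23.9% ± 6.5 over 14 cytosines, from 12.4% at position -216 to 33.3% at position -11. The growth factor adaptor Grb10 had 0.235% ± 0.831 (23 cytosines) and Zdbf2 0.135% ± 0.360 (26 cytosines, the second RefSeq start). Ube3a, a ubiquitin ligase, and Igf2r, a receptor for insulin-like growth factor 2, had 16 and 12 cytosines that were all at 0. Differentially methylated regions of imprinted genes need not lie at the start placed here.

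The placed members of the lists for the ES cell state and its alternatives were low, like most placed promoters. Of 24 pluripotency genes only Sox2 and Fgf4, a growth factor of the early embryo, were placed, and their 12 and 7 listed cytosines were all at 0. Other defining ES cell genes, such as Pou5f1 and Nanog, were not placed, so the labelled cell type can be checked against few promoters. The trophoblast factor Ascl2 had 0.906% ± 1.49 (17 cytosines), and Vim, a mesenchymal filament gene, had 10 cytosines at 0, so these promoters do not separate the cell types. All 11 placed developmental transcription factors were below 20%, as were 97.6% of all placed promoters. The highest were the T-box factor Tbx1 with 17.6% ± 14.7 (9 cytosines from 5.3% to 38.9%) and the endoderm factor Foxa2 with 9.58% ± 5.32 (8 cytosines), and the lowest were the neurogenic factor Neurog1 and the LIM homeodomain factor Isl1, with 11 and 6 cytosines at 0.

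Housekeeping promoters, 8 placed, were at most 0.282%, the value of Ldha, a lactate dehydrogenase subunit, followed by the elongation factor Eef1a1 with 0.24%. Eef2, another elongation factor, and Polr2a, a subunit of RNA polymerase II, were at 0 in 20 and 13 cytosines. Among 11 placed genes of the methylation machinery the highest was the dioxygenase Tet3 with 3.14% ± 5.13 (5 cytosines), then the histone methyltransferase Setdb1 with 0.18%. Dnmt1 and Tet2 were at 0 in 26 and 23 cytosines. The only placed members of the tissue-restricted list were both muscle genes and both CpG-poor: Ckm, the muscle creatine kinase, with 85.3% ± 6.2 (6 cytosines, 7 CpGs), and Acta1, skeletal muscle actin, with 71.9% ± 14.8 (6 cytosines, 12 CpGs). For scale, 44.1% of the placed promoters with at most 10 CpGs and 13.3% of those with 11 to 15 had at least 20%.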

How the data were processed

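The deposited file of the control shRNA library holds, per the file's columns and the labels, 1 row per CpG cytosine and strand with 5 bases of context and a methylation fraction from 0 to 1, given by the authors to 3 decimals and without coverage. Of 588220 rows, 72 had no level and were left out. Per the submitters' processing notes, CASAVA 1.8, Bismark 0.10.1 and mm9 were used; settings for coverage, duplicates and trimming were not given in the sources used here. Per the labels' protocols, MspI fragments were made into TruSeq libraries and converted with an EpiTect kit.

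Fractions were turned into percent in pandas 2.3.3 (Python 3.11.15, NumPy 2.4.6). Figures used matplotlib 3.10.9. Positions are 1-based, and contexts of minus-strand rows were reverse complemented. The members and gene lists were chosen with earlier results of these data known. Genes named are the 2 highest and 2 lowest of each list, all placed pluripotency and imprinted genes and the 3 longest runs of each class, unless stated. A promoter was placed where at least 90% of the listed cytosines matched its sequence; 3 entries out of the RefSeq gene order were left out after the data were seen, and 9 with more than 1 place were not used. The placing and the flank calculation were tested on simulated data. The placing test used CpG-rich promoters set apart on an invented chromosome without other cytosines. It therefore cannot show how often false places arose in the library. No comparison between libraries was made.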

Additional observations from a re-analysis of the deposited data

How the results depend on the processing

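Of 81 repeats of the main values, 51 stayed within the spread over autosomes or, for counts, within 1.5 times. Some of the 51 could not have moved. Leaving out CCGG removes no CpG followed by C or T, so C minus T after the CpG was unchanged. Without isolated cytosines the mean level was 28.4%, the unmethylated share 63.8% and the methylated share 20.85%. Without CCGG they were 23.2%, 70.1% and 16.7%. The unmethylated share was 56.1% below 10% and 44.1% at exactly 0, and the methylated share 12.9% above 90% and 2.89% at exactly 100%. Runs of at least 5 cytosines numbered 13504 unmethylated at gaps of up to 1000 bp, a setting chosen after seeing the data, and 2071 methylated at gaps of up to 50 bp. With classes at 10% and 90% there were 5502 intermediate and 748 methylated runs, with classes at 30% and 70% 889 and 5814. The r at 26 to 50 bp was 0.947 for opposite strands and 0.944 for cytosines next in order. C minus T after the CpG was -16.9 points as a level and reversed to 1.29 as a deviation over all clusters, G minus C before it was -23.3 and reversed to 0.550, and T minus C at the second base before it was 11.8 against 1.60; the deviation by construction removes differences between clusters. Without CCGG, G minus C was -4.10 points as a level and 3.62 as a deviation in intermediate clusters (4.85 with CCGG). Promoters at or above 20% made up 6.30% with at least 3 matched cytosines, 0.594% with at least 10, and 3.62% at limits of 10% and 90%, and those above 80% made up 2.51%, 0.0313% and 0.231%. The setting of at least 3 kept entries on 3 or 4 cytosines that were out of the RefSeq gene order. With at least 10 matched cytosines 4 germline promoters were placed, and all 4 had at least 20%. A coverage minimum could not be tried without coverage, so thinly and deeply covered cytosines weigh alike. No paired analysis was possible because each group has 1 library, and no library could be left out.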

Other observations

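Evenly intermediate clusters were looked for after the values were seen. Of the clusters of at least 5 cytosines, 23 had a mean of 40% to 60% with an SD below 5 points. Flanking genes were looked up only for the 4 of these with at least 10 cytosines, which lay at chr2:174125358-174125595 (17 cytosines, 56.2% ± 4.0), chr2:174124993-174125204 (12 cytosines, 52.0% ± 2.8), chr7:150481374-150481523 (11 cytosines, 47.6% ± 3.9) and chr2:157387180-157387356 (10 cytosines, 44.7% ± 2.8), all on mm9. In the RefSeq gene order of GRCm38.p6, each lay between placed promoters whose genes bound a stretch with a gene of the imprinted list. The stretch includes the bodies of the bounding genes, so a listed gene can lie inside one of them. The first and second lay between Vapb and Ctsz, whose stretch holds Gnas, a gene for a G protein subunit. These clusters lie next to each other, so the 4 clusters are not 4 separate loci. The third lay between Tssc4 and Osbpl5, whose stretch holds Kcnq1ot1, Cdkn1c and Phlda2. The last lay between Src and Blcap, 4692 bp from the Blcap promoter, and their stretch holds Nnat. The stretch held such a gene for 202 of 13052 clusters of at least 10 cytosines (1.55%). It did so for 9 of the 200 (4.50%) with means of 40% to 60% and a larger SD. The spans between placed promoters are wide, so such a gene is not shown to hold the cluster.

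Of the placed promoters with at least 20 CpGs, 21 had means of at least 20%, and 15 of these belong to genes outside the lists. They too were looked at after their values were seen. Henmt1, which methylates piRNAs, had 28.6% ± 15.9 over 17 cytosines, Dmrtb1, a factor of the switch between mitosis and meiosis in spermatogonia, 21.6% ± 8.9 over 16, and Hsf5, a heat shock factor of the testis, 22.9% ± 12.6 over 12. The shared promoter region of Ctnnd1 and Btbd18, which run in opposite directions, had 55.1% ± 12.4 over 11 cytosines. Smarca5, a chromatin remodeller, had 61.4% ± 5.9 over 5 cytosines, 4930563M20Rik 63.2% ± 14.7 over 9, and Vmn2r29, a vomeronasal receptor of a large family whose copies can share sequence, 76.0% ± 21.4 over 5. The cytokine receptor subunit Csf2ra had 39.4% ± 28.6, the vitamin D hydroxylase Cyp2r1 29.4% ± 16.1, the B cell factor Pax5 22.3% ± 10.04 and the tight junction gene Cldn11 20.1% ± 6.3. Atf7ip and Gm44140 share cytosines at 24.3% ± 19.9, and Gm52707 had 32.0% ± 18.8. Promoters with few CpGs reached higher values, as for Pde1c with 98.4% ± 3.6 and Lcat, the cholesterol acyltransferase of plasma, with 91.0% ± 5.4, each over 5 cytosines.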
